A study of Mus musculus with 9 samples.

Results

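The Btg and Tob genes code for a small family of antiproliferative proteins, and 5 of them (Btg1, Btg2, Btg3, Tob1 and Tob2) were taken by symbol from the 23420 gene symbols of the deposited RNA sequencing table. The family was chosen by the lower TPM of Btg2 in cells given NAT than in cells given DMSO, so that contrast is described here and not used as a test of its members. Btg and Tob proteins slow the passage of cells into S phase when overproduced. They bind the deadenylases Cnot7 and Cnot8 of the CCR4-NOT complex, which shorten the poly(A) tails of mRNAs and so hasten their decay. Btg2, also called Tis21, is induced by growth factors and by p53, and in the developing brain it marks progenitors that are about to produce neurons.

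The cells were neural stem cells from the hippocampus of wild-type C57BL/6J mice aged 2 days, grown in culture and then moved to a medium lacking the growth factors bFGF and EGF, which all groups shared. In that medium both compounds were given at 3 µM. NAT is known here by its code name and as a small molecule. P7C3-A20, an aminopropyl carbazole, is known from work on the survival of young hippocampal neurons. DMSO, the solvent of the compounds, served as the control. Each of the 3 groups had 3 libraries. The labels call these biological replicates without naming separate cultures or animals. A p-value here weighs a difference between groups only against the spread among libraries, which may be technical. Neither the sex of the mice, nor pooling, nor the time of treatment is given in the labels. The table holds TPM, a read count divided by gene length and scaled to a total of 1000000 in each library. Depth, as reads recovered from the table, ran from 11487218 to 13604222 with DMSO or NAT and from 15380977 to 16929714 with P7C3-A20. The 6 neural stem and radial glia markers (Fabp7, Vim, Nes, Sox2, Hes5 and Slc1a3) summed to 18830 to 19260 TPM with DMSO, 18220 to 18690 with NAT and 17250 to 18150 with P7C3-A20. The 6 microglia markers summed to at most 1.04 TPM in any library, with Cx3cr1, C1qc, Trem2 and Ctss at 0. Markers of endothelium (Cdh5 and Cldn5 at 0), blood (Hba-a1 and Hbb-b1 at 0) and fibroblasts (Lum at 0) summed to at most 2.05, 3.42 and 1.24 TPM. The 5 astrocyte markers (Gfap, Aqp4, Aldh1l1, S100b and Gja1) summed to 3829 to 4068 TPM with DMSO, 4121 to 4307 with NAT and 3783 to 4192 with P7C3-A20. Oligodendrocyte lineage markers summed to 3188 to 3312, 3033 to 3218 and 3151 to 3700 TPM, and neuron markers to 713 to 743, 698 to 744 and 676 to 733 TPM, in the same order. Every NAT library thus lay above every DMSO library in its summed astrocyte markers. With either compound, every library lay below DMSO in its summed stem cell markers, most of whose TPM came from Fabp7. Fabp7 had means of 12200, 11410 and 10930 TPM with DMSO, NAT and P7C3-A20. Not all 6 markers were lower, as Sox2 had higher means with either compound than with DMSO. Slc1a3 was higher with NAT without overlap (as 14.1% of all genes were), and Vim had a higher mean with P7C3-A20. The remaining means were below those with DMSO. The part of these cell mixtures in the results was not tested.

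The sequences upstream of Btg2 and Btg1 are shown because Btg2 was the member whose level differed most between the groups and Btg1 is its closest relative. Both are the 250 bases before the gene start in RefSeq, build GRCm38.p6, which is not the build of the deposited table. Btg2 lies on the minus strand, at chr1:134079156-134079405. Btg1 lies on the plus strand, at chr10:96616751-96617000. Capitals mark matches to 4 motifs on either strand, namely the CRE (TGACGTCA), the GC box (GGGCGG), the CCAAT box (CCAAT) and the TATA box (TATAAA).
Btg2: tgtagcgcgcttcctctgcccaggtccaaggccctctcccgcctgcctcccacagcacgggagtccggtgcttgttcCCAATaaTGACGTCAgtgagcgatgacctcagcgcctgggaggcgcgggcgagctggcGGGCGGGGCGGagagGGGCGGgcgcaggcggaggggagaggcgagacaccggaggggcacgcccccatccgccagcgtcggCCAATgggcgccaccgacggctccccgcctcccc
Btg1: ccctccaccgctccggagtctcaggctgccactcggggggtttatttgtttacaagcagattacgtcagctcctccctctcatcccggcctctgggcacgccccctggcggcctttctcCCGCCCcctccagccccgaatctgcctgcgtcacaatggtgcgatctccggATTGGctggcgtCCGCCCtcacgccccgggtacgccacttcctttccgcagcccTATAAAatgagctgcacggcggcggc

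The Btg2 window held 1 CRE, the sequence bound by CREB family factors, which began 166 bases before the gene start. This exact motif was in 1.55% of 32851 upstream windows of the same length and in none of the windows of Btg1, Tob1 and Tob2. The Btg1 window held ttacgtca, which differs from the motif in 1 base and was not counted. Btg2 also had 3 GC boxes and 2 CCAAT boxes but no TATA box. Btg1 had 2 GC boxes, 1 CCAAT box and a TATA box that began 26 bases before its start. The Tob1 window held 3 GC boxes, 2 CCAAT boxes and 1 TATA box, and that of Tob2 held 2 GC boxes alone. Across all windows a GC box was in 32.7%, a CCAAT box in 33.9% and a TATA box in 12.4%. The CArG box bound by serum response factor (1.47% of all windows) and a single p53 motif (7.13%) were also searched for, and these letters were in none of the 4 windows. The p53 motif was the single stretch RRRCWWGYYY, where R is A or G, W is A or T and Y is C or T. GC content was 73.2% for Btg2, 65.2% for Btg1, 73.6% for Tob1 and 60.4% for Tob2. These matches describe the sequence and do not show that a factor binds there. Only exact matches within the 250 bases were counted, so a motif not found does not show that its factor is absent.

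Of the 5 members, 4 had reads in all 9 libraries and passed the filter of 1 TPM in at least 3 libraries. Levels per gene length stood in the order Btg2, Tob1, Tob2 and Btg1, with means over the 9 libraries of 137, 69.1, 35.8 and 33.4 TPM. Btg2 was 1.66 to 2.43 times as high as Tob1 in the 9 libraries, and Tob1 was 1.81 to 2.14 times as high as Tob2. Tob2 and Btg1 could not be ordered, since Tob2 was the higher in 6 of 9 libraries and their ratio ran from 0.985 to 1.18. Btg2 was thus a well expressed gene, with a mean above that of 89.6% of the 13837 distinct symbols tested, against 77.05% for Tob1, 58.5% for Tob2 and 56.7% for Btg1.

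Btg3, the member also called ANA, was listed at 0 in all 9 libraries. A listed 0 need not mean that the gene is silent in this table, because 4118 of the 23420 symbols were at 0 throughout, among them Rpl26, a ribosomal protein gene, and Ndufs5, a gene of respiratory complex I. In the GENCODE transcripts, 51.8% of the 50-base windows of Btg3 also occur in another gene, all of them in the processed pseudogene Gm7334, which was listed at 0 as well. The same share was 0.0% for Btg2 and Tob1, 2.6% for Btg1 and 3.9% for Tob2. Whether shared sequence bears on the zeros of Btg3 was not tested. Btg4, the oocyte member of the family, had 1 read in each of NAT replicates 1 and 2 and none in the other libraries.

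**Figure D1:**
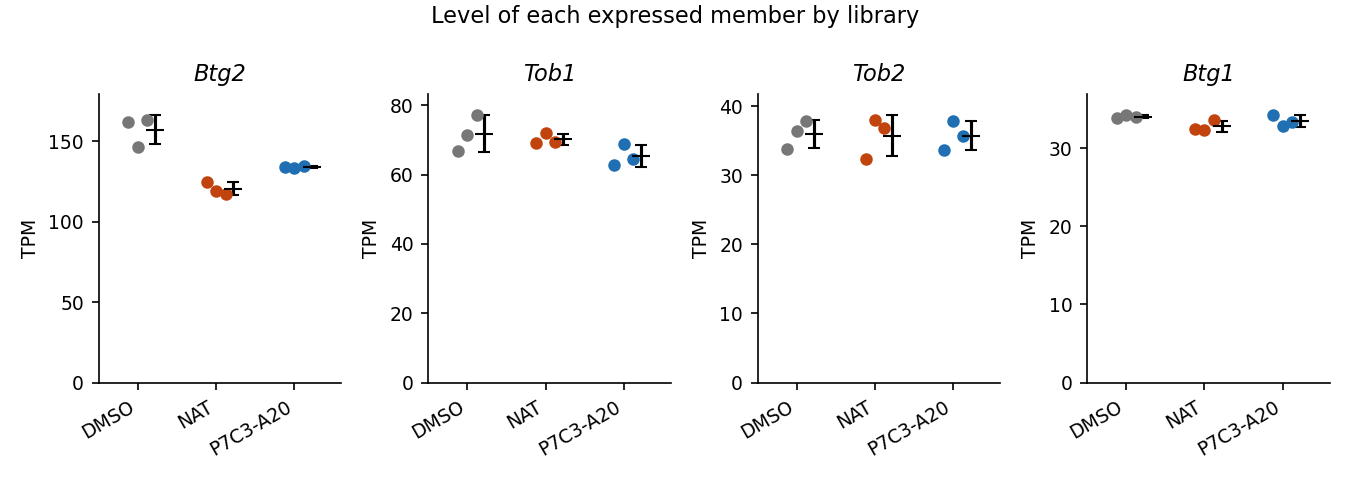
TPM of Btg2, Tob1, Tob2 and Btg1 in each library (points), with the mean and SD of each group of 3 beside them (bars); every vertical axis starts at 0. Btg2 separates into 3 levels, 157 with DMSO, 134 with P7C3-A20 and 120.4 with NAT, while the groups lie close together for the other members.

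Btg2 was lower with either compound than with DMSO, and lowest with NAT. In the DMSO libraries Btg2 stood at 162, 147 and 163 TPM, a mean of 157 ± 9.15 (SD, n = 3). With NAT it stood at 125, 119 and 117 TPM, a mean of 120.4 ± 3.98 (SD, n = 3). With P7C3-A20 it stood at 134, 133 and 135 TPM, a mean of 134 ± 0.806 (SD, n = 3). The 3 groups did not overlap at any point, as every NAT library lay below every P7C3-A20 library and each of those below every DMSO library. Between 1652 and 2547 reads lay behind each value. The spread of the DMSO libraries, a coefficient of variation of 5.82%, was above the 2.11% that counting alone gives, whereas the 0.602% of the P7C3-A20 libraries was below their 2.02%. In bulk RNA, fewer cells with Btg2 and less Btg2 mRNA per cell cannot be told apart. In the NAT libraries, where Btg2 was lowest, all 5 astrocyte markers had higher means than with DMSO and 0 were called. Of all genes tested, 63.5% were above DMSO with NAT. Gfap, a filament of astrocytes, differed by 0.24 ± 0.07 (SE) on the log2 scale (adjusted p = 0.285 in limma) and S100b by 0.15 ± 0.04 (adjusted p = 0.278 in limma). Both, and Gja1 (0.08), lay above DMSO without overlap, as did 14.1% of all genes. With P7C3-A20, where Btg2 was also below DMSO, Gfap, Aldh1l1 and S100b had higher means than with DMSO. Gja1 (1244 against 1252 TPM) and Aqp4 (203 against 217 TPM) had lower ones. The part of these markers in the level of Btg2 was not tested.

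With NAT, the mean of Btg2 was 23.4% below that with DMSO. Its log2 fold change, on the scale of log2(TPM + 1) as for all fold changes here, was -0.38 ± 0.04 (SE), with a 95% interval from -0.48 to -0.28. It was 1 of 4 genes called among the 13839 tested (0.0289%) at an adjusted p below 0.05 in limma. Since this contrast chose the members, its adjusted p of 0.0142 in limma is given as a description. The call was lost without DMSO replicate 1 (adjusted p = 0.0731 in limma), DMSO replicate 3 (0.0648), NAT replicate 2 (0.0805) or NAT replicate 3 (0.0906), while the fold change stayed between -0.43 and -0.35. Fitted with voom to the recovered reads, Btg2 was called whichever of the 6 libraries was left out, at -0.46 to -0.39.

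With P7C3-A20, the mean of Btg2 was 14.8% below that with DMSO. This was -0.23 ± 0.04 (SE) on the log2 scale, and the 95% interval ran from -0.32 to -0.13. The adjusted p of 0.139 in limma missed the threshold, in a comparison where 0.0217% of genes passed it. Fitted with voom to the recovered reads, the value was -0.25 and the adjusted p was 0.0114, which was lost without DMSO replicate 1 (0.128). This comparison uses the same 3 DMSO libraries as the one that chose the members, so the low value of Btg2 here is not separate evidence.

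Between the compounds at the same dose, Btg2 was 10.2% lower with NAT than with P7C3-A20. The log2 difference was -0.15 ± 0.04 (SE), its 95% interval ran from -0.25 to -0.06, and the adjusted p of 0.191 in limma missed the threshold. No gene passed in this comparison (0% of 13839), although 2188 had an unadjusted p below 0.05, and voom on the recovered reads called 329. There Btg2 stood at -0.17 with an adjusted p of 0.0404, a call that was lost once each library's trend with GC content was removed (0.0624). It was also lost without NAT replicate 1 (0.123), 2 (0.0935) or 3 (0.198) and without P7C3-A20 replicate 2 (0.0550) or 3 (0.0699), with values from -0.20 to -0.14. The NAT libraries here are those of the contrast that chose the members. The data thus place Btg2 lower with NAT than with P7C3-A20 in all 9 pairs of libraries, without a call in limma.

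**Figure D2:**
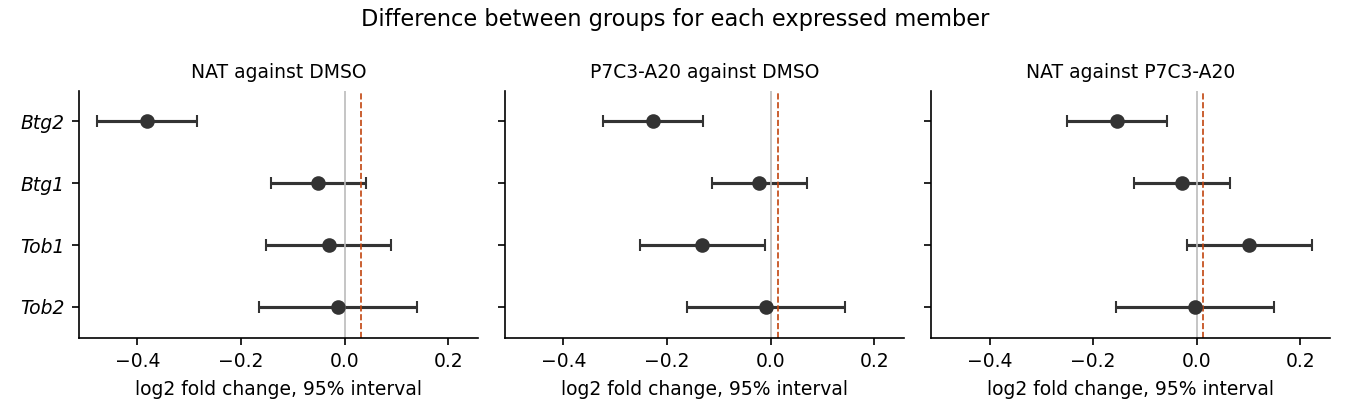
Log2 fold change of the 4 tested members in the 3 comparisons (points) with its 95% interval (bars); the grey line is 0 and the dashed line the median of all genes tested (0.03, 0.01 and 0.01). The interval of Btg2 lies left of 0 in each panel, and that of Tob1 does so for P7C3-A20 against DMSO, reaching -0.01.

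Btg1, the closest relative of Btg2 in the family, differed little between the groups in its levels. It stood at 33.9, 34.2 and 33.9 TPM with DMSO, a mean of 34.0 ± 0.180 (SD, n = 3). With NAT it stood at 32.5, 32.3 and 33.6 TPM, and with P7C3-A20 at 34.2, 32.8 and 33.4 TPM. The NAT libraries all lay just below the DMSO libraries, and the P7C3-A20 libraries overlapped both. The DMSO and NAT libraries held 733 to 854 reads of Btg1, whose counting error was 3.56% with DMSO and 3.60% with NAT, against coefficients of variation of 0.530% and 2.06%. Btg1 differed by -0.05 ± 0.04 (SE) on the log2 scale for NAT against DMSO, with a 95% interval from -0.14 to 0.04 (adjusted p = 0.667 in limma). For P7C3-A20 against DMSO its log2 difference was -0.02, with an interval from -0.11 to 0.07 (adjusted p = 0.827 in limma), and its sign turned (0.024) with GC trends removed. A fall of Btg1 as large as that of Btg2 with NAT lies outside both intervals. Of the 4 tested members, Btg2 and Btg1 lay below DMSO without overlap in the NAT libraries, as did 4.89% of all genes tested. With P7C3-A20, Btg2 alone did, against 7.49% of genes. No member lay above DMSO without overlap, as 14.1% of genes did with NAT and 13.1% with P7C3-A20.

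The ratio of Btg2 to Btg1 within a library does not depend on how the library was scaled. It was 4.78, 4.29 and 4.81 with DMSO, 3.84, 3.69 and 3.49 with NAT and 3.92, 4.06 and 4.03 with P7C3-A20. The groups treated with either compound lay below the DMSO libraries without overlap, and the NAT libraries below those with P7C3-A20. These ratios hold the Btg2 values that chose the family and are a description. They can still depend on each library's trend with GC content. With GC trends removed, the log2 difference of NAT against P7C3-A20 was -0.16 for Btg2 and -0.11 for Btg1. Without that step it was -0.15 and -0.03.

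Tob1 and Tob2 are the longer members, whose tails bind the poly(A) binding protein Pabpc1 and so carry the deadenylases to the mRNA. Tob1 stood at 66.7, 71.5 and 77.2 TPM with DMSO, a mean of 71.8 ± 5.25 (SD, n = 3). With NAT it stood at 69.0, 72.1 and 69.4 TPM, inside the DMSO range. With P7C3-A20 it stood at 62.7, 68.8 and 64.6 TPM, a mean of 65.4 ± 3.10 (SD, n = 3), and these libraries overlapped those with DMSO. The log2 difference of Tob1 was -0.03 ± 0.05 (SE) for NAT against DMSO, with a 95% interval from -0.15 to 0.09 (adjusted p = 0.855 in limma). For P7C3-A20 against DMSO it was -0.13 ± 0.05 (SE), with an interval from -0.25 to -0.01 and an adjusted p of 0.277 in limma. Between the compounds Tob1 was the member that leaned the other way, 7.32% higher with NAT, with no overlap (as for 13.3% of genes in that direction). That log2 difference was 0.10, with an interval from -0.02 to 0.22 and an adjusted p of 0.387 in limma. Btg2 lay lower with NAT than with P7C3-A20 without overlap, as did 8.35% of genes.

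Tob2 was the steadiest member in its group means. It stood at 33.8, 36.3 and 37.8 TPM with DMSO, at 32.3, 38.0 and 36.8 TPM with NAT and at 33.7, 37.8 and 35.65 TPM with P7C3-A20. The groups overlapped over almost their whole range, and the means were 36.0, 35.7 and 35.7 TPM. Its log2 difference was -0.01 for each compound against DMSO, with 95% intervals from -0.16 to 0.14, and adjusted p-values of 0.963 for NAT and 0.961 for P7C3-A20 in limma. The sign of Tob2 turned when single libraries were left out, so the data give it no direction. Btg1, Tob1 and Tob2 were called in none of the settings tried.

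Summed over the 5 members, the family stood at 299 ± 11.9 TPM (SD, n = 3) with DMSO, 259 ± 2.58 with NAT and 268 ± 3.76 with P7C3-A20. Without Btg2 the sums were 142 ± 7.30, 139 ± 4.40 and 135 ± 4.43 TPM. Their ranges overlapped between DMSO and NAT and between DMSO and P7C3-A20, so Btg2 made up most of the difference in the sum. Btg2 held 54.6, 50.8 and 52.3% of the family's TPM with DMSO, 48.3, 45.6 and 45.6% with NAT and 50.7, 48.8 and 50.2% with P7C3-A20. Btg3 entered these sums and shares at its listed 0, which need not mean that it is silent.

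**Figure D3:**
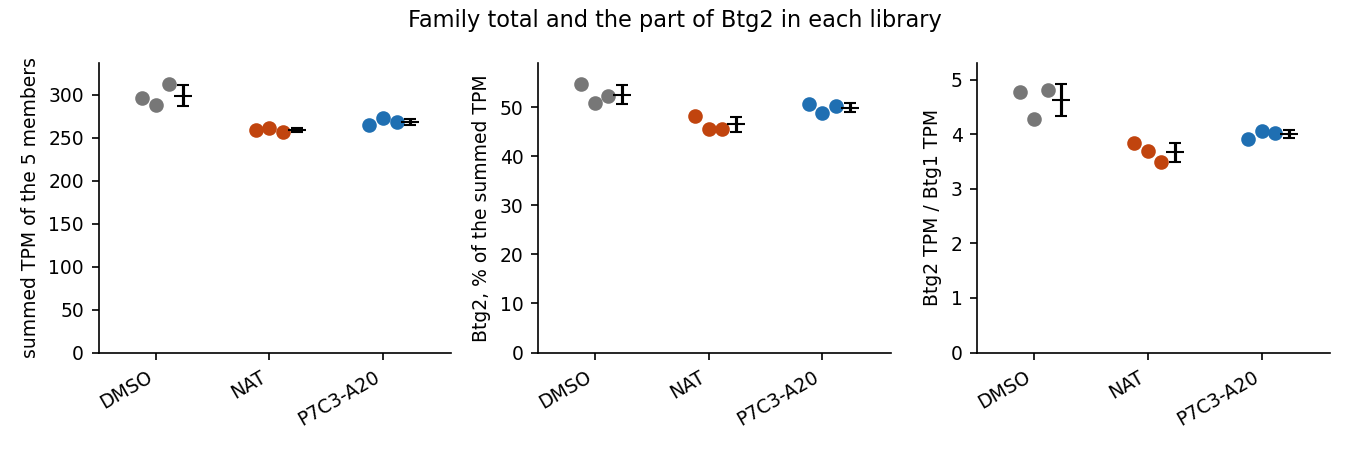
Summed TPM of the 5 members, the share of Btg2 in that sum in percent, and the ratio of Btg2 to Btg1, for each library (points) with the group mean and SD (bars, n = 3). The mean sum is 299 TPM with DMSO and 259 with NAT, and the mean share of Btg2 is 52.6% and 46.5%. Btg3 is counted at its listed 0.

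The partners of the family in mRNA decay were read from gene lists chosen with earlier results of these data known. The CCR4-NOT complex, which shortens poly(A) tails, had 11 genes tested. With NAT 7 of them were higher and 4 lower than with DMSO, none was called, and their median log2 difference was 0.03, equal to the 0.03 of all genes. With P7C3-A20 4 were higher and 7 lower, none was called, and the median was -0.03 against 0.01 for all genes. Cnot7, the deadenylase that Btg and Tob proteins bind, had means of 86.4 ± 1.97, 89.9 ± 4.62 and 85.4 ± 4.12 TPM (SD, n = 3) with DMSO, NAT and P7C3-A20. Its twin Cnot8 had 80.04 ± 1.25, 76.4 ± 1.50 and 76.3 ± 4.08 TPM. Both deadenylases were thus above the level of Tob1 and below that of Btg2 in the DMSO means, per gene length. Cnot6, a deadenylase of the other class in the complex, was at 220.1 TPM with DMSO, 234 with NAT and 213 with P7C3-A20. Between the compounds, the log2 differences without overlap were those of Cnot6 (0.14 ± 0.03 SE, adjusted p = 0.168 in limma) and its paralog Cnot6l (0.21 ± 0.05 SE, adjusted p = 0.181 in limma), both higher with NAT, where 13.3% of all genes were higher without overlap. Against DMSO, Cnot1, Cnot6 and Cnot6l were lower with P7C3-A20 without overlap (7.49% of all genes), at -0.11, -0.05 and -0.10 on the log2 scale. With NAT, Cnot6 was higher (0.09) and Cnot8 lower (-0.07) than with DMSO without overlap, as were 14.1% and 4.89% of all genes. Cnot1, the scaffold of the complex, had 82.2, 83.7 and 76.4 TPM.

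Of 14 genes of other deadenylation and decapping enzymes, 11 were higher with NAT than with DMSO and 9 were higher with P7C3-A20, with none called. Their log2 differences ran from -0.03 (Lsm1) to 0.11 (Ccrn4l, the deadenylase-related nocturnin) with NAT and from -0.13 (Pde12) to 0.21 (Dcp1b) with P7C3-A20. Pabpc1, the poly(A) binding protein that Tob proteins contact, had 802 ± 29.6, 813 ± 23.0 and 827 ± 19.1 TPM (SD, n = 3). Among the 10 genes for poly(A) binding and mRNA partners, 6 were higher with NAT and 7 with P7C3-A20, and none was called. The lowest with NAT was Zfp36, which brings mRNAs with AU-rich elements to the deadenylases, at 59.7 ± 4.67 TPM against 74.9 ± 11.7 with DMSO. These NAT and DMSO libraries overlapped (adjusted p = 0.305 in limma), and Zfp36 had a mean of 79.4 TPM with P7C3-A20. Its relative Zfp36l1 stood at 210.3 TPM with NAT, 226 with DMSO and 218 with P7C3-A20.

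Other protein partners and reported targets gave 7 tested genes, of which 6 were higher with NAT and 4 with P7C3-A20, none called. Prmt1, the arginine methyltransferase that Btg1 and Btg2 bind, had means of 179, 181 and 185 TPM with DMSO, NAT and P7C3-A20. Ccnd1, the cyclin D1 gene that Btg2 is reported to repress, had 210.4 ± 15.1 TPM with DMSO, 231 ± 10.9 with NAT and 226 ± 16.1 with P7C3-A20 (SD, n = 3). The log2 difference of Ccnd1 was 0.14 ± 0.06 (SE) with NAT (adjusted p = 0.428 in limma) and 0.11 ± 0.06 with P7C3-A20 (adjusted p = 0.424 in limma). Among 16 cell cycle genes around G1, the step at which the family acts, 15 were higher with NAT than with DMSO, 0 were called and the median log2 difference was 0.10 against 0.03 for all genes. With P7C3-A20 7 were higher, 9 lower, 0 were called and the median was near 0, at -0.004. Between the compounds 15 of the 16 were higher with NAT, again with 0 called, and the median was 0.14 against 0.01. The extremes were Rbl1, a pocket protein, at 0.31 and Cdk4, the kinase of cyclin D, at -0.09 for NAT against DMSO. A share to set beside this and the other lists' counts is that of all genes tested. With NAT 63.5% of them were above DMSO, with P7C3-A20 55.2% were, and 54.04% were above their P7C3-A20 level with NAT.

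Btg2 is known both as a p53 target and as an immediate early gene, and both lists were read. Of 16 p53 targets, 12 were higher with NAT than with DMSO and 11 with P7C3-A20, with none called. Cdkn1a, which codes for the cell cycle inhibitor p21, was the highest of them with NAT, at 215 ± 7.72 TPM against 189 ± 6.62 with DMSO and 211 ± 5.44 with P7C3-A20 (SD, n = 3). Its log2 difference was 0.19 ± 0.04 (SE) with NAT (adjusted p = 0.210 in limma) and 0.16 ± 0.04 with P7C3-A20 (adjusted p = 0.153 in limma), opposite in sign to that of Btg2. Of 16 immediate early genes, 14 were lower with NAT than with DMSO, and the median log2 difference was -0.23. The 1 called gene was Fosb, a Fos family transcription factor, at 73.8 ± 4.91 TPM with NAT against 129 ± 17.2 with DMSO, which fell by 0.79 on the log2 scale (adjusted p = 0.0234 in limma). That call was kept without DMSO replicate 2 and lost without any other single library (adjusted p of up to 0.130 in limma), while the value stayed between -0.90 and -0.71. It was also lost with no filter (0.0987), a pseudocount of 0.1 (0.0507) or robust empirical Bayes (0.109). In the other 6 settings Fosb was called, at adjusted p-values from 9.90e-08 with voom to 0.0433 with the 6 compared libraries alone. Ier2 stood at 115 ± 8.05 TPM with NAT, 153 ± 15.1 with DMSO and 152 ± 9.64 with P7C3-A20. With P7C3-A20, 9 of the 16 were lower than with DMSO, the median was -0.02 and none was called. Between the compounds 14 of 16 were lower with NAT, the median was -0.20 and none was called. The higher astrocyte sums of the NAT libraries stand beside these values and those of the neurogenic genes, and their part in them was not tested. Nor was the part of p53 or of immediate early regulation in the level of Btg2 tested.

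**Figure D4:**
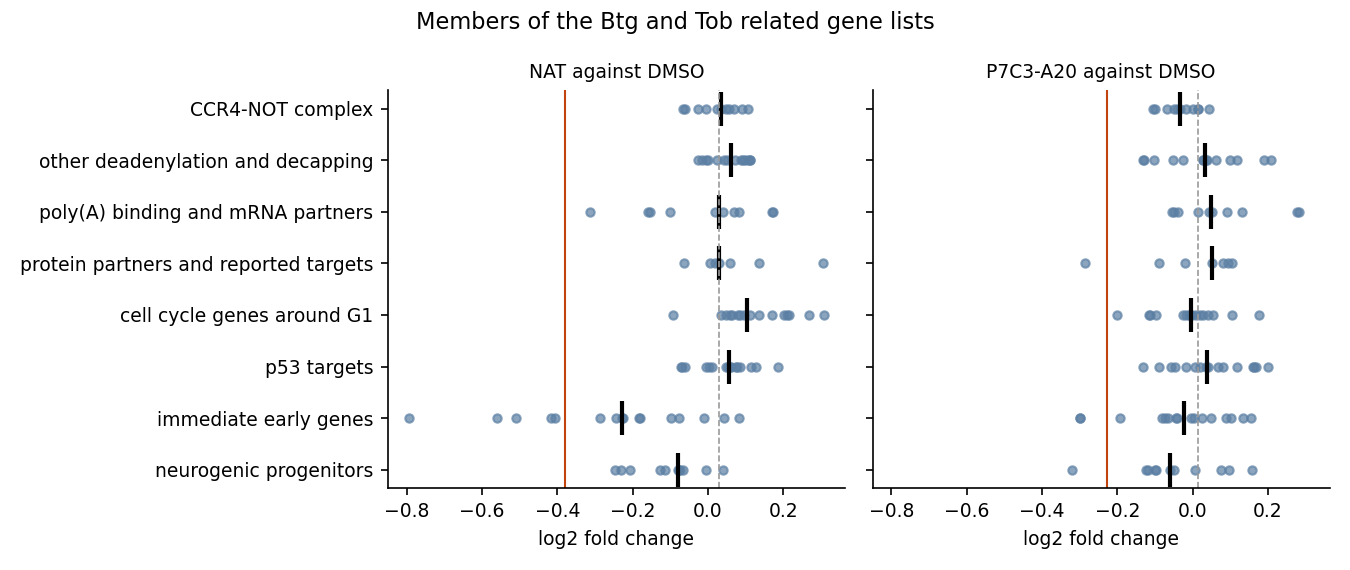
Log2 fold change of each tested gene of the 8 lists (points) and the list's median (black bar) for NAT and for P7C3-A20 against DMSO; the red line is Btg2 and the dashed line the median of all genes. With NAT the median of the immediate early genes, -0.23, lies farthest towards Btg2, and with P7C3-A20 all 8 medians lie between -0.06 and 0.05.

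Neurogenic progenitors, which Btg2 marks, were represented by 11 tested genes out of 14 listed. Eomes, Neurod1 and Neurod4 did not pass the filter, with means of at most 0.686 TPM in any group. With NAT 10 of them were lower than with DMSO and 1 was higher, with a median log2 difference of -0.08 and none called. With P7C3-A20 7 were lower, the median was -0.06 and none was called. Insm1, a zinc finger factor of these progenitors, was the lowest with NAT at -0.25 (7.39 against 8.96 TPM). Neurog2, a proneural factor, was the lowest with P7C3-A20 at -0.32 (2.08 against 2.85 TPM). That value rests on few reads, 26 to 29 in each P7C3-A20 library and 27 to 32 in each DMSO library.

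The patterns of the members over the 9 libraries were compared by the Pearson correlation of log2(TPM + 1), given as a description because the libraries share groups and sequencing depth. Btg2 and Btg1 had r = 0.62 and Tob1 and Tob2 r = 0.59, while the other pairs lay between -0.14 and 0.21. Among 10023 genes with a mean of at least 10 TPM, those most like Btg2 were C030037D09Rik, Fosb and Ctnna2, each at r = 0.93. The genes most like Btg1 were Dctn3 (r = 0.89), Myeov2 (0.88) and Tctex1d2 (0.88). For Tob1 they were 2210404O09Rik (0.89), Mir3061 (0.87) and Emc4 (0.87). For Tob2 they were Hinfp (0.87), Pofut2 (0.86) and Gtf2h4 (0.86).

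**Figure D5:**
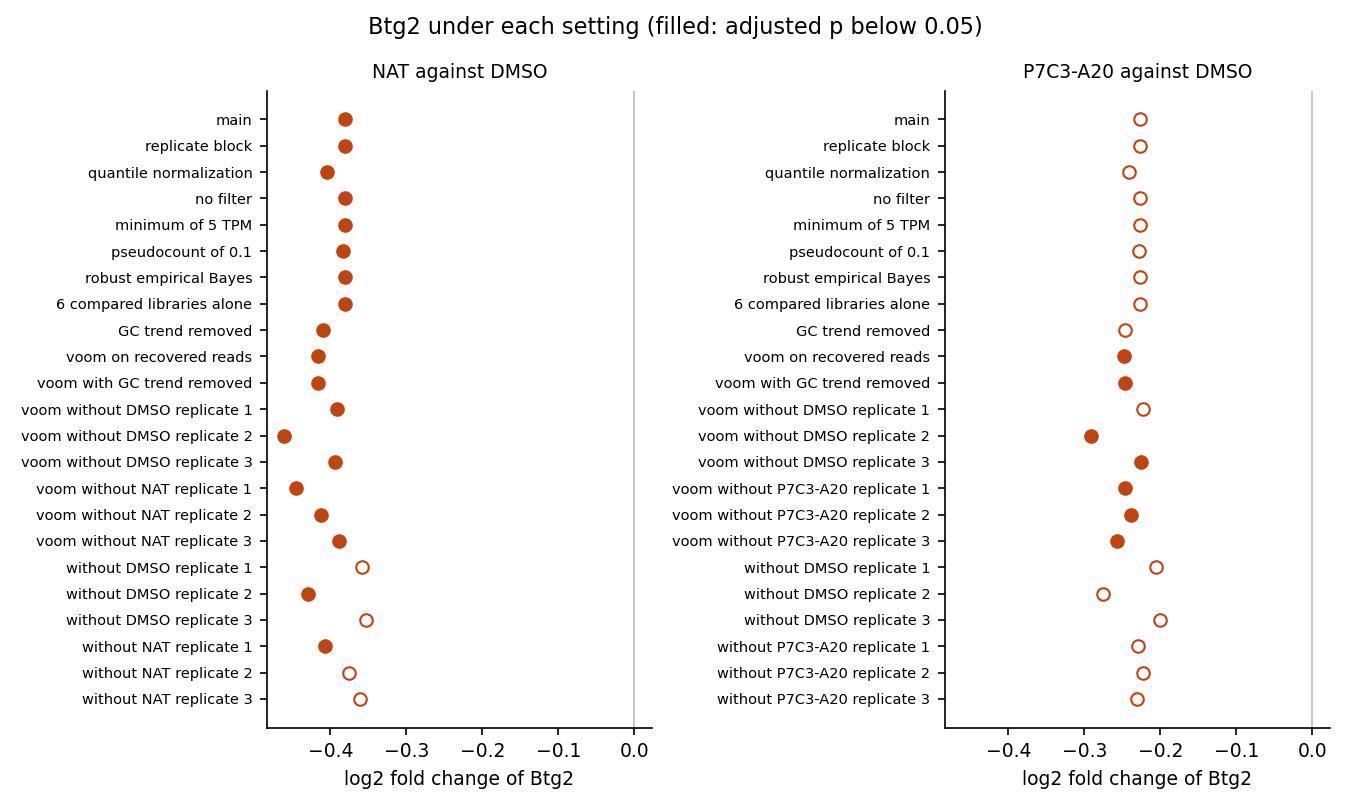
Log2 fold change of Btg2 against DMSO for NAT and for P7C3-A20 under each way of processing, filled where the adjusted p was below 0.05. For NAT the values lie between -0.46 and -0.35 and the open points are 4 settings that leave out 1 library; for P7C3-A20 the values lie between -0.29 and -0.20 and the filled points all come from voom.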

How the data were processed

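Per the labels' protocols, the libraries came from total RNA by the TruSeq kit of Illumina. The authors deposited TPM values for 23420 symbols in 9 libraries, each summing to 1000000. Bowtie 0.12.2 and the builds mm8 and mm9 are named in the submitters' processing notes, with no role. Counter, annotation and strand setting: not given in the sources used here, so overlapping and antisense genes cannot be told apart. Whole reads were recovered from the steps of the TPM values for 19301 of 19302 symbols with any value (99.99%, tolerance 0.001 reads, or 0.02 above 5000 reads), and were used for depth and for voom.

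The log2(TPM + 1) values of 13839 genes (at least 1 TPM in at least 3 libraries) entered limma-trend, in 1 fit of 9 libraries that left 6 residual degrees of freedom. All tests were two-sided, with Benjamini-Hochberg adjustment over all genes and calls below 0.05. The members and gene lists were chosen with earlier results of these data known. Genes named were the members, other Btg or Tob symbols, 11 partners taken by role, the extremes and called genes of each list (of which a part is printed) and the 3 genes most like each member. Rpl26 and Ndufs5 were chosen after their values were seen. Alternatives were a replicate block, quantile normalization, no filter or 5 TPM, a pseudocount of 0.1, robust empirical Bayes, the 6 compared libraries alone, voom, removal of GC trends (spline, 5 degrees of freedom) and leaving out each library. The use of voom with GC trends removed or without each library was chosen after seeing the data. GC content came from GENCODE transcripts (13712 tested genes). Scripts were tested on simulated data. Tools were limma 3.58.1 in R 4.3.3, and matplotlib 3.10.9, pandas 2.3.3 and numpy 2.4.6 in Python 3.11.15.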

Additional observations from a re-analysis of the deposited data

How the results depend on the processing

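Btg2 stayed below DMSO in every setting run. These settings refit the values that chose the family, so they are a description and not separate evidence. As every library with a compound lay below every DMSO library, leaving out 1 library could not turn the sign in limma on log2(TPM + 1). For NAT, Btg2 was called in the 10 settings that kept all compared libraries (-0.42 to -0.38), and leaving out 1 library gave -0.43 to -0.35. For P7C3-A20 it was called by voom (-0.25), by voom without GC trends (-0.25) and by voom without DMSO replicates 2 and 3 or P7C3-A20 replicates 1, 2 and 3 (-0.29, -0.23, -0.25, -0.24 and -0.26). For NAT against P7C3-A20 it was called by voom (-0.17) and by voom without P7C3-A20 replicate 1 (-0.17).

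Whether equal replicate numbers mark paired libraries is not given in the labels, and the correlations do not settle it. Of 9 same-numbered pairs, 2 correlated above 0.1 (range -0.05 to 0.15). These were DMSO replicate 1 with NAT replicate 1 and with P7C3-A20 replicate 1, the highest of all pairs between groups. The other same-numbered pairs reached at most 0.09, while DMSO replicate 3 with NAT replicate 2 had 0.11. Of 9 libraries, 4 correlated best with their own number. With the replicate number as a block, Btg2 was called for NAT (adjusted p = 0.0265 in limma) but not for P7C3-A20 (0.0671) or between the compounds (0.151), and genes called came to 7 (P7C3-A20 against DMSO) and 1 (NAT against P7C3-A20), where 3 and 0 were called without it.

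For NAT against DMSO, where all 4 calls were lower, the count was 2 with a minimum of 5 TPM, 1 with a pseudocount of 0.1, 7 with the 6 libraries alone, 27 by voom (7 higher, 20 lower) and 1 to 11 with 1 library left out. For P7C3-A20 against DMSO (1 higher, 2 lower) these counts were 0, 0, 5, 250 (131 higher, 119 lower) and 1 to 10. For NAT against P7C3-A20 they were 5 with the 6 libraries alone, 329 by voom (209 higher, 120 lower) and 0 to 1 with 1 library left out. The cause was not tested.

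Of 135 other results for Btg1, Tob1 and Tob2, 9 changed sign and 0 were called. With GC trends removed, Btg1 turned to 0.024 for P7C3-A20 against DMSO and Tob2 to 0.022 for NAT against P7C3-A20. Leaving out 1 library gave -0.082 to 0.022 for Tob1 with NAT, and for Tob2 -0.058 to 0.056 with NAT, -0.053 to 0.030 with P7C3-A20 and -0.049 to 0.066 between the compounds. At 3 libraries a group, differences of a few percent in Btg1, Tob1 and Tob2 were not detectable.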
